A study of Oncorhynchus mykiss with 12 samples.

Results

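The miR-148 and miR-152 family was described in the liver of rainbow trout through 4 of the 1696 small RNA sequences that the authors tabulated. The rows were taken by name: dre-miR-148_R-1, ola-miR-148_R+1, ssa-miR-148a-5p and fru-miR-152. They were picked on the reading that fru-miR-152 was lower after a high-carbohydrate meal and the miR-148 rows were not. For ola-miR-148_R+1 that reading is loose, since its mean was also lower after that meal, with overlap between groups. Because of this choice, every value of these rows in highCHO fish stands below as a description, with no test. All fish were adult, wild type and labelled with the strain name Walbaum. The groups were fish refed with a high-carbohydrate meal (highCHO, samples 38, 45, 49 and 50), fish refed with a meal free of carbohydrate (noCHO, samples 20, 21, 31 and 33) and fish fasted for 4 days (samples 7, 8, 10 and 13), with 1 liver library per sample. The labels number the samples and do not say in so many words that each came from a separate fish, so p-values measure the spread between these samples. The comparisons ask how liver microRNA (miRNA) differs with the carbohydrate content of a meal in a carnivorous fish that clears glucose poorly. Whole liver was sequenced, so fewer cells of a type and less RNA per cell cannot be told apart.

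A miRNA is a short RNA cut from a hairpin precursor. The strand that a silencing complex keeps pairs with messenger RNAs mainly through its seed, the stretch at bases 2 to 8, so miRNAs with one seed can share targets even where their other bases differ. In mammals miR-148a, miR-148b and miR-152 form one such seed family, in which the 3p arm of the hairpin is the major strand. Mammalian miR-148a is abundant in hepatocytes and represses the LDL receptor and the cholesterol exporter ABCA1, and both miR-148a and miR-152 repress the DNA methyltransferase DNMT1. These roles come from mouse and human work and are given as background.

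The sequences show how closely the rows are related and where they part. The 4 rows and the row named as the opposite arm of miR-152 are printed 5′ to 3′ as the authors' table has them, with T for U and bases 2 to 8 in capitals.
dre-miR-148_R-1: tCAGTGCAttacagaactttg
ola-miR-148_R+1: tCAGTGCAttacagaacttta
fru-miR-152: tCAGTGCAtaacagaactttgt
ssa-miR-148a-5p: aAGTTCTGtgatacacttcgact
ssa-miR-152-5p_L-1: aAGTTCTGtgatacacttaggct

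Only 3 of the 4 rows share the seed CAGTGCA. ssa-miR-148a-5p is by its name the other arm of a miR-148 hairpin, with the seed AGTTCTG, so it belongs to miR-148 by name and not by seed. Counting positions from 1 at the 5′ end, dre-miR-148_R-1 and fru-miR-152 were equal at 20 of 21 bases and differed by T10A, just past the seed. The miR-148 rows dre-miR-148_R-1 and ola-miR-148_R+1 differed at the last base alone, by G21A. The opposite-arm rows ssa-miR-148a-5p and ssa-miR-152-5p_L-1 share a seed with each other and differed by C19A and A21G. With so few bases between rows, and with reads divided between sequences by the authors in a way that is not given in the sources used here, the split of reads between rows is uncertain.

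Of the 1696 sequences, 7 (0.413%) carried the seed CAGTGCA at bases 2 to 8. By name or by seed the table held 13 family rows, and the 4 rows chosen made up 99.4% of their counts. The largest of the other 9 was ssa-miR-152-5p_L-1, by its name the 5p arm of miR-152, with 68 to 741 counts per library. The remaining 8 had between 1 and 58.3 counts in all 12 libraries together, and the highest of them was dre-miR-152_R-1, which differs from fru-miR-152 by A10G. All 4 chosen rows and ssa-miR-152-5p_L-1 passed the filter on low counts. No genome positions were analysed here.

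Libraries held 197684 (highCHO sample 49) to 3057706 (noCHO sample 33) counts assigned to miRNA sequences. The hepatocyte miRNA miR-122 summed to 203611 to 357654 CPM in highCHO, 295250 to 439022 CPM in noCHO and 232009 to 272855 CPM in fasted libraries (CPM, counts scaled to a common library size after TMM normalization), the leading level of any marker list, as in liver. The highCHO libraries stood apart in composition: inserts under 15 nt made up 14.2 to 32.2% of adapter-containing reads in highCHO libraries, against 6.18 to 13.0% in noCHO and 7.63 to 11.6% in fasted libraries, and miRNA counts made up 25.5 to 41.2% of mappable reads in highCHO, 44.4 to 56.0% in noCHO and 43.1 to 45.8% in fasted libraries. The libraries also fell into a pair of sets by the share of dre-let-7c-5p_1ss19GC in its sum with dre-let-7a, which was 3.32 to 3.81% in all highCHO libraries and noCHO samples 31 and 33, against 0.942 to 1.42% in noCHO samples 20 and 21 and all fasted libraries. Set and meal therefore cannot be told apart between highCHO and fasted fish.

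fru-miR-152, the miR-152 strand that carries the shared seed, was low in every highCHO library and steady elsewhere. It had 5245, 5770, 3675 and 6537 CPM in highCHO samples 38, 45, 49 and 50. In noCHO samples 20, 21, 31 and 33 it had 9276, 9667, 11926 and 10550 CPM, and in fasted samples 7, 8, 10 and 13 it had 10045, 8797, 10183 and 9123 CPM. The highest highCHO value lay below the lowest value of both other groups, which overlapped each other. Means were 5307 ± 1211 CPM in highCHO, 10355 ± 1175 CPM in noCHO and 9537 ± 682 CPM in fasted fish (SD, n = 4 each). The fitted level was 1.80-fold lower in highCHO than in fasted fish (log2 -0.85, SE 0.17) and 1.95-fold lower in highCHO than in noCHO fish (log2 -0.96, SE 0.17). Sample 49 was the lowest of the highCHO libraries and also the shallowest: its 831 counts were 0.420% of the library (95% exact interval 0.392 to 0.450%, counting error only). Without it the highCHO mean was 5851 ± 650 CPM (SD, n = 3) and the log2 change against fasted fish was -0.61. Among all sequences in its library, fru-miR-152 ranked 24 to 26 in highCHO, 13 to 19 in noCHO and 16 or 17 in fasted fish.

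Of the 4 rows, fru-miR-152 alone had all highCHO libraries below all fasted libraries, the pattern for which the rows were picked. Over all 340 sequences tested, 10.6% had highCHO wholly below fasted, and 17.1% showed no overlap in either direction. Against noCHO the same row alone was wholly lower in highCHO, where the share over all sequences was 5.59% for lower and 9.41% for either direction.

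**Figure D1:**
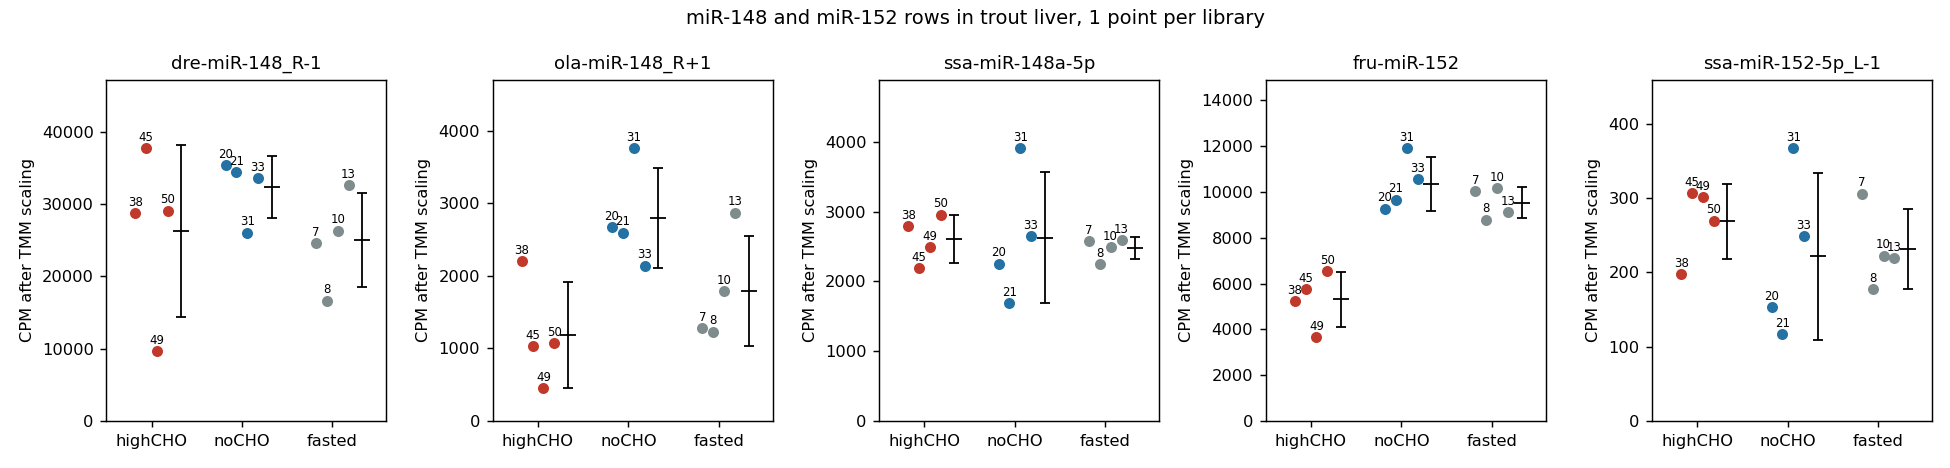
Level in CPM after TMM scaling (linear axis from 0) of the 4 rows and of ssa-miR-152-5p_L-1 in highCHO, noCHO and fasted liver; each point is 1 library with its sample number, and the bar beside each group is the mean ± SD of 4 libraries. The fru-miR-152 points of highCHO fish, 3675 to 6537 CPM, lie below all others, while every other row overlaps between highCHO and fasted fish.

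dre-miR-148_R-1, the major miR-148 strand, was the most abundant of the family in all 12 libraries and ranked between 4 and 17 among all sequences. In highCHO samples 38, 45, 49 and 50 it had 28713, 37757, 9626 and 29104 CPM, so that 3 libraries were close to or above the other groups and sample 49 stood far below. It had 35438, 34428, 26047 and 33608 CPM in noCHO samples 20, 21, 31 and 33, and 24549, 16640, 26330 and 32567 CPM in fasted samples 7, 8, 10 and 13. All groups overlapped. Means were 26300 ± 11874 CPM in highCHO, 32380 ± 4288 CPM in noCHO and 25021 ± 6560 CPM in fasted fish (SD, n = 4 each).

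The highCHO libraries of dre-miR-148_R-1 spanned 3.92-fold, against 1.36-fold in noCHO and 1.96-fold in fasted fish. Between highCHO and fasted fish its log2 difference was 0.07 (SE 0.33), and between highCHO and noCHO fish -0.30 (SE 0.33). Single libraries and the scaling moved the difference from fasted fish. Without highCHO sample 49 the highCHO mean was 31858 ± 5112 CPM (SD, n = 3) and the log2 difference from fasted fish was 0.43. Without highCHO sample 45 that difference was -0.15. With all libraries scaled to the sample total it was -0.17. In sample 49 the row still rested on 2177 counts, 1.101% of the library (95% exact interval 1.056 to 1.148%).

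ola-miR-148_R+1, the miR-148 sequence that ends in A in place of G, was the scarcer form. It had 2202, 1034, 451.02 and 1072 CPM in highCHO samples 38, 45, 49 and 50. In noCHO samples 20, 21, 31 and 33 it had 2676, 2599, 3765 and 2143 CPM, and in fasted samples 7, 8, 10 and 13 it had 1285, 1233, 1790 and 2873 CPM. Sample 38 was the highest highCHO library and lay among the noCHO values, and the other 3 highCHO libraries lay below every noCHO and fasted library. Log2 differences were -0.59 (SE 0.41) between highCHO and fasted fish and -1.23 (SE 0.41) between highCHO and noCHO fish. For fru-miR-152 the difference from noCHO fish was smaller, -0.96 (SE 0.17), but without overlap. Without highCHO sample 38 the differences of ola-miR-148_R+1 were -1.06 and -1.71, and without highCHO sample 49 they were -0.28 and -0.92. With the short-insert percentage in the fit the difference from fasted fish turned to 0.096 (SE 0.51) and that from noCHO fish was -0.54 (SE 0.51). That percentage did not overlap between highCHO and the other groups, so neither fitted value was observed directly. In sample 49 ola-miR-148_R+1 rested on 102 counts.

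ssa-miR-148a-5p, by its name the opposite arm of a miR-148 hairpin, had nearly the same mean in the 3 groups: 2609 ± 338 CPM in highCHO, 2628 ± 943 CPM in noCHO and 2478 ± 162 CPM in fasted fish (SD, n = 4 each). It had 2790, 2191, 2498 and 2959 CPM in highCHO samples 38, 45, 49 and 50. The noCHO libraries were the most scattered, with 2258, 1693, 3915 and 2646 CPM in samples 20, 21, 31 and 33, and the fasted libraries the least, with 2583, 2245, 2493 and 2592 CPM in samples 7, 8, 10 and 13. In highCHO sample 49, where dre-miR-148_R-1 was lowest, the 5p arm was in the middle of its group. Its log2 differences were 0.07 (SE 0.22) between highCHO and fasted fish and -0.01 (SE 0.22) between highCHO and noCHO fish. Scaled to the sample total, the difference between highCHO and fasted fish was -0.10, and with a term for the library set in the fit it was -0.66 (SE 0.30).

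The row named as the opposite arm of miR-152, which played no part in the choice of rows, had a higher mean in highCHO than in both other groups. Whether it and fru-miR-152 come from the same hairpin was not tested, since the rows were paired by name alone. ssa-miR-152-5p_L-1 had 197, 306, 301 and 269 CPM in highCHO samples 38, 45, 49 and 50. It had 153, 116, 367 and 248 CPM in noCHO samples 20, 21, 31 and 33, and 306, 177, 222 and 219 CPM in fasted samples 7, 8, 10 and 13. The groups overlapped, with means of 268 ± 50.2, 221 ± 112 and 231 ± 53.9 CPM in highCHO, noCHO and fasted fish (SD, n = 4 each). In the edgeR quasi-likelihood test with Benjamini-Hochberg adjustment over 340 sequences it did not pass between highCHO and fasted fish (log2 0.21, SE 0.33, adjusted p = 0.749), where 6.18% of sequences passed, or between highCHO and noCHO fish (log2 0.27, SE 0.33, adjusted p = 0.629), where 2.35% passed. Adding the library set to the fit turned its log2 difference between highCHO and fasted fish to -0.98 (SE 0.41, adjusted p = 0.219), and between highCHO and noCHO fish to -0.20 (SE 0.29, adjusted p = 0.717). In that fit fru-miR-152 was at -1.09 (SE 0.30) and -1.08 (SE 0.20), so the fitted differences of both rows from fasted fish were similar. Those from noCHO fish, -1.08 and -0.20, stayed apart. The set term rests on the noCHO libraries alone, since no other group holds libraries of both sets. Its values between highCHO and fasted fish are therefore carried over from noCHO and were not observed directly.

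**Figure D2:**
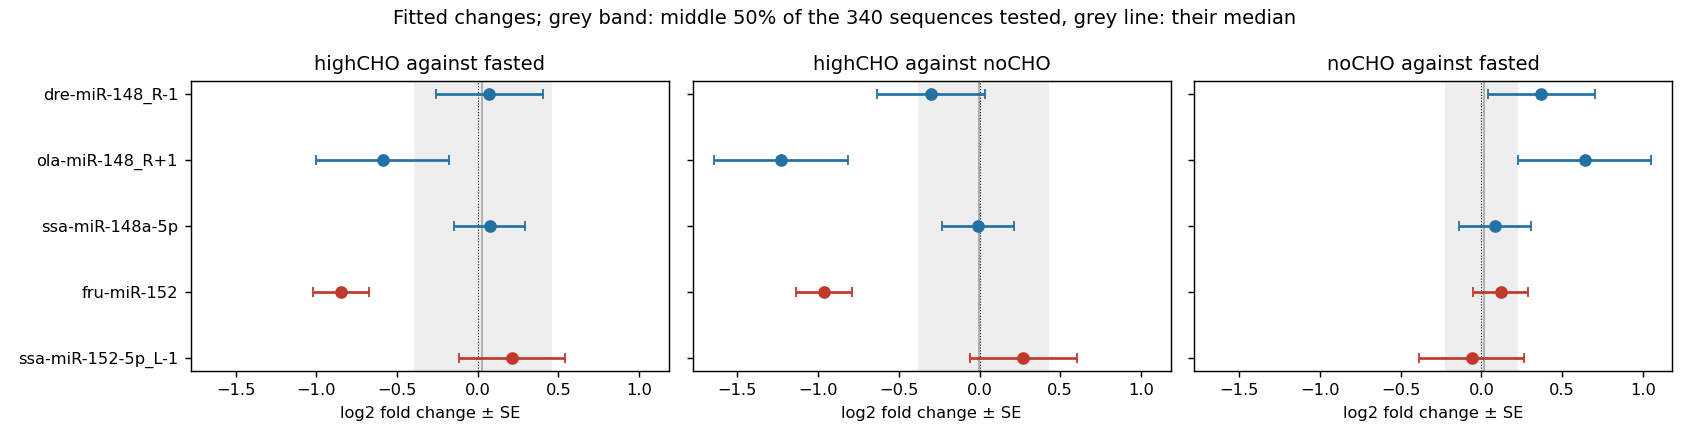
Fitted log2 fold change ± SE of the 4 rows and of ssa-miR-152-5p_L-1 in the 3 comparisons, with the group named first over the other; the grey band spans the interquartile range of all 340 sequences tested and the grey line is their median. In both highCHO panels fru-miR-152 lies left of the band (-0.85 and -0.96) while ssa-miR-152-5p_L-1 lies right of 0 (0.21 and 0.27), a position it loses with the library set in the fit (-0.98 and -0.20).

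Ratios within a library do not depend on the scaling between libraries. For every 100 counts of the summed miR-148 3p rows, fru-miR-152 had 17.0, 14.9, 36.5 and 21.7 counts in highCHO samples 38, 45, 49 and 50. It had 24.3, 26.1, 40.0 and 29.5 counts in noCHO samples 20, 21, 31 and 33, and 38.9, 49.2, 36.2 and 25.7 counts in fasted samples 7, 8, 10 and 13. Here highCHO overlapped both other groups, through sample 49 alone: the other 3 highCHO libraries, 14.9 to 21.7, lay below every noCHO and every fasted library. The mean log2 ratio was lower in highCHO than in fasted fish by a log2 difference of -0.79 with all libraries and -1.05 without sample 49. Against noCHO fish those differences were -0.48 and -0.74.

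Among counts that carry the shared seed in the chosen rows, fru-miR-152 made up 17.99 ± 6.16% in highCHO, 22.9 ± 4.00% in noCHO and 27.01 ± 5.15% in fasted fish (SD, n = 4 each), with overlap between all groups. The summed level of the 3 seed-sharing rows was 13752 to 44561 CPM in highCHO, 41738 to 47391 CPM in noCHO and 26670 to 44563 CPM in fasted fish. The 4 rows together made up 3.28 ± 1.08%, 4.65 ± 0.658% and 4.22 ± 0.634% of miRNA counts in highCHO, noCHO and fasted fish.

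Within miR-148, the form ending in A had 7.67, 2.74, 4.69 and 3.68 counts for every 100 of dre-miR-148_R-1 in highCHO samples 38, 45, 49 and 50. It had 7.55, 7.55, 14.5 and 6.38 in noCHO samples 20, 21, 31 and 33, and 5.23, 7.41, 6.80 and 8.82 in fasted samples 7, 8, 10 and 13. As with the level, sample 38 stood with the other groups and the other 3 highCHO libraries lay below all of them. The mean log2 difference was -0.67 between highCHO and fasted fish and -0.94 without sample 38. Between highCHO and noCHO fish it was -0.96, and -1.24 without sample 38.

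The rows named as opposite arms were also set against each other. ssa-miR-148a-5p had 9.02, 5.65, 24.8 and 9.81 counts per 100 miR-148 3p counts in highCHO samples 38, 45, 49 and 50, against a range of 4.57 to 13.1 in noCHO and 7.31 to 12.6 in fasted fish, so that sample 49 lay above the rest. Its log2 difference was 0.15 between highCHO and fasted fish with all libraries and -0.26 without sample 49. Between highCHO and noCHO fish it was 0.56, and 0.15 without sample 49. For miR-152 the ratio of the rows named 3p and 5p, looked at after its values were seen, did not overlap between highCHO and the other groups. Of the 340 single sequences, 17.1% did not overlap in either direction against fasted fish and 9.41% against noCHO fish. No such share was computed for ratios. Each count of ssa-miR-152-5p_L-1 stood against 26.6, 18.8, 12.2 and 24.3 counts of fru-miR-152 in highCHO samples 38, 45, 49 and 50. It was 60.5, 83.2, 32.5 and 42.5 in noCHO samples 20, 21, 31 and 33, and 32.8, 49.7, 45.8 and 41.6 in fasted samples 7, 8, 10 and 13. Within noCHO the ratio also moved with the library set: samples 31 and 33, of the set that holds all highCHO libraries, were below samples 20 and 21. By geometric mean the ratio was 2.14-fold lower in highCHO than in fasted fish (log2 -1.096, SE 0.28). It was 2.61-fold lower in highCHO than in noCHO fish (log2 -1.39, SE 0.39). Both are given with no test because fru-miR-152 was chosen on these samples. These differences leave the library set out of account. With the set in the fit of each row, the fitted differences from fasted fish, -1.09 and -0.98, were nearly equal, though that term rests on noCHO libraries alone. In the same fits the differences from noCHO fish, -1.08 for fru-miR-152 and -0.20 for ssa-miR-152-5p_L-1, stayed apart. The lower ratio against fasted fish and the library set cannot be told apart.

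**Figure D3:**
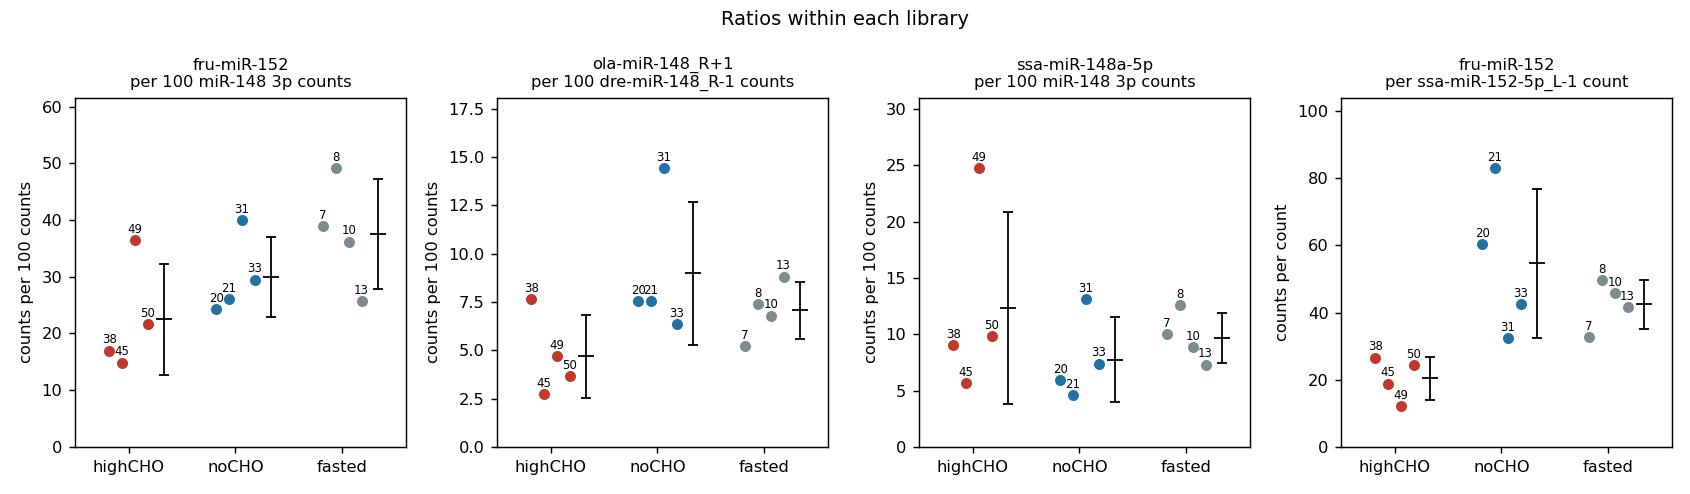
Ratios of family rows within each library (linear axes from 0) in highCHO, noCHO and fasted liver; points are libraries with their sample numbers and bars are mean ± SD of 4. In the rightmost panel all 4 highCHO libraries, 12.2 to 26.6 counts of fru-miR-152 per count of ssa-miR-152-5p_L-1, lie below both other groups, with noCHO samples 31 and 33 below noCHO samples 20 and 21, while in the leftmost panel sample 49 alone overlaps them.

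The meal without carbohydrate against the fast is the comparison that the choice of rows did not use, although its fasted libraries are shared with one that it did. None of the 4 rows passed: edgeR called 0 of 340 sequences (0%), with 23 at an unadjusted p under 0.05. DESeq2 called 2, neither of them in the family: ipu-miR-7550_L-1R-1 and the let-7 sequence dre-let-7c-5p_1ss19GC, both named after their values were seen. The share of dre-let-7c-5p_1ss19GC defines the library sets, which divide the noCHO libraries. The part of that split in its call was not tested. The miR-148 3p rows had the larger differences, log2 0.37 (SE 0.33, adjusted p = 0.993, edgeR) for dre-miR-148_R-1 and log2 0.64 (SE 0.41, adjusted p = 0.830, edgeR) for ola-miR-148_R+1. fru-miR-152 was at log2 0.12 (SE 0.17, adjusted p = 0.993, edgeR) and ssa-miR-148a-5p at log2 0.08 (SE 0.22, adjusted p = 0.993, edgeR). With scaling to the sample total these last rows turned to -0.059 and -0.11, and without noCHO sample 31 ssa-miR-148a-5p was at -0.21. All 4 rows overlapped between noCHO and fasted fish, as did all but 4.12% of the 340 sequences.

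No ratio passed in this comparison either. Each was tested with a two-sided exact permutation test of 4 against 4 libraries, whose smallest p is 0.0286, and adjusted over the 4 quantities. After that adjustment a single ratio could not pass, even with no overlap between groups. Most of the 4 quantities would have to separate fully at once. The lack of a pass therefore does not show that the groups are equal. All 4 quantities overlapped between noCHO and fasted fish. fru-miR-152 over miR-148 3p had a log2 difference of -0.31 (SE 0.25, exact p = 0.314, adjusted 0.429), with 29.99 ± 7.01 counts per 100 in noCHO and 37.5 ± 9.65 in fasted fish (SD, n = 4 each). The form ending in A over dre-miR-148_R-1 had a log2 difference of 0.29 (SE 0.30, exact p = 0.429, adjusted 0.429), and ssa-miR-148a-5p over miR-148 3p of -0.41 (SE 0.36, exact p = 0.343, adjusted 0.429). The 4 rows together were 0.423 percentage points higher in noCHO than in fasted fish (SE 0.457, exact p = 0.371, adjusted 0.429). Within the set of all fasted libraries, with noCHO samples 20 and 21 alone, the log2 differences were -0.54 for fru-miR-152 over miR-148 3p, 0.12 for the form ending in A and -0.87 for ssa-miR-148a-5p over miR-148 3p, and the 4 rows were 0.607 percentage points higher. Without noCHO sample 31 the form ending in A was at 0.039, and without noCHO sample 21 ssa-miR-148a-5p over miR-148 3p was at -0.19 and the 4 rows were 0.108 percentage points higher. For ssa-miR-152-5p_L-1 the log2 difference was -0.06 (SE 0.33, adjusted p = 1.00, edgeR). It was -0.78 (SE 0.30, adjusted p = 0.327, edgeR) with the library set in the fit and -0.79 (SE 0.27, adjusted p = 0.275, edgeR) within the set of all fasted libraries, where 2 noCHO libraries remain.

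Library composition and fru-miR-152 both set highCHO libraries apart from the other groups. The 4 highCHO libraries had both the highest short-insert percentages, 14.2, 21.4, 32.2 and 16.9% in samples 38, 45, 49 and 50, and the lowest fru-miR-152, and sample 49 was at the far end of each. Sample 49 also had the lowest dre-miR-148_R-1 and ola-miR-148_R+1, whereas sample 45, second in short inserts, had the highest dre-miR-148_R-1 of all 12 libraries. Sample 38, with the fewest short inserts of its group, had less fru-miR-152 (5245 CPM) than samples 45 and 50 (5770 and 6537 CPM). When the fit held the short-insert percentage, the log2 difference of fru-miR-152 was -0.51 (SE 0.24) between highCHO and fasted fish and -0.64 (SE 0.24) between highCHO and noCHO fish, and that of dre-miR-148_R-1 was 0.71 (SE 0.45) between highCHO and fasted fish and turned to 0.35 (SE 0.45) between highCHO and noCHO fish. Short inserts did not overlap between highCHO and the other groups, so these fitted values were not observed directly. When the fit held the library set, fru-miR-152 differed by log2 -1.09 (SE 0.30) between highCHO and fasted fish. noCHO samples 31 and 33, of the same library set as the highCHO libraries, had the highest fru-miR-152 of all, 11926 and 10550 CPM. The part of short inserts and of the library set in the level of fru-miR-152 was not tested. Short inserts and the high-carbohydrate meal cannot be told apart in these libraries.

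Markers of other cell types were also compared between groups. The summed fibroblast and smooth muscle miRNAs (miR-143, miR-145, miR-199 and miR-214, 26 rows of which 14 were tested) were at 61954 to 77942 CPM in highCHO and 48322 to 61261 CPM in fasted libraries, with no overlap, and at 43738 to 63244 CPM in noCHO libraries. The epithelial miRNAs (miR-200, miR-141 and miR-429, 19 rows, 4 tested) were at 2137 to 6958 CPM in highCHO, 1641 to 1944 CPM in noCHO and 1947 to 2906 CPM in fasted libraries, with noCHO below both other groups. The miR-122 sum was higher in noCHO than in fasted libraries with no overlap. The pancreas miRNAs (miR-216, miR-217 and miR-375, 15 rows, 3 tested) were at 63.1 to 14195 CPM in highCHO libraries. They were at 70.3 to 97.9 CPM in noCHO and 63.8 to 285 CPM in fasted libraries. These groups overlapped, but the top of the highCHO range lay far above both others. The erythrocyte, leukocyte, endothelial and muscle lists overlapped between all groups. No family of any marker list was at 0 in all libraries. Of the 340 single sequences, 17.1% did not overlap in either direction between highCHO and fasted libraries. That share was 9.41% between highCHO and noCHO and 4.12% between noCHO and fasted libraries. The part of these markers in the values of the family was not tested.

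**Figure D4:**
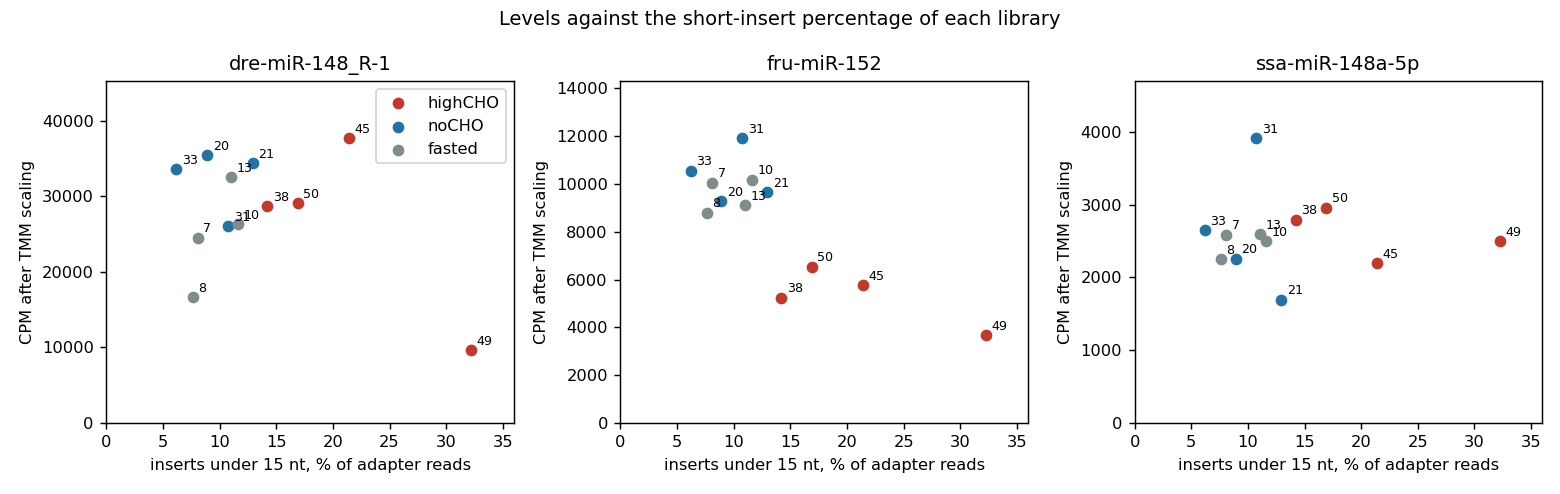
Level in CPM after TMM scaling of dre-miR-148_R-1, fru-miR-152 and ssa-miR-148a-5p against the percentage of adapter-containing reads with inserts under 15 nt, 1 point per library with its sample number, highCHO, noCHO and fasted in separate colours. The highCHO libraries lie at 14.2 to 32.2% short inserts and at the lowest fru-miR-152, with sample 49 at the right end of each panel.

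The rows of the family were not each other's closest matches across the 12 libraries. Likeness was measured as the root mean square difference between log2 CPM profiles, each centred on its own mean, and nothing about shared function follows from it. The profiles include the highCHO libraries, on which fru-miR-152 and the miR-148 rows were picked as differing. Their distances from each other, and low highCHO levels in the closest matches of fru-miR-152, thus follow in part from that choice. For fru-miR-152 the closest known sequences were dre-miR-15a-5p_R+1 (0.23 log2 units), dre-miR-722_L-2 (0.25) and dre-miR-18b-5p_1ss11TC (0.25), against a median of 0.68 over all other tested sequences. dre-miR-148_R-1 was at 0.52 from fru-miR-152, ssa-miR-148a-5p at 0.54, ola-miR-148_R+1 at 0.56 and ssa-miR-152-5p_L-1 at 0.72. dre-miR-722_L-2, a miRNA named in zebrafish, shared the profile at a similar level, with 3963 ± 620 CPM in highCHO, 8019 ± 1931 CPM in noCHO and 7149 ± 775 CPM in fasted fish (SD, n = 4 each). The other 2 were scarce, with fasted means of 12.3 ± 1.57 CPM for dre-miR-15a-5p_R+1 and 44.1 ± 7.22 CPM for dre-miR-18b-5p_1ss11TC.

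For dre-miR-148_R-1 the closest were fru-let-7e (0.31), fru-miR-103 (0.31) and dre-miR-456_1ss22AT (0.33), against a median of 0.74 over all other tested sequences. fru-let-7e had 9034 ± 2302 CPM in highCHO, 11379 ± 1782 CPM in noCHO and 7278 ± 755 CPM in fasted fish (SD, n = 4 each). ola-miR-148_R+1, which differs from dre-miR-148_R-1 by 1 base, was at 0.59, and 77 of the other tested sequences were closer.

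Other miRNAs known from hepatocytes or from lipid handling were set beside the family, from lists that leave out the family rows. In the hepatocyte list (miR-122, miR-192, miR-194, miR-101 and miR-30, 30 tested) 0 passed higher and 4 passed lower between highCHO and fasted fish in edgeR, with a median log2 difference of 0.07 against 0.03 for all sequences, of which 2.94% passed lower and 3.24% higher. The 4 were ssa-miR-30e-5p, ola-miR-101b-5p, fru-miR-101b_2ss21AC22GT and dre-miR-101a. In the lipid and cholesterol list (miR-33, miR-122, miR-27, miR-128, miR-30, miR-223, miR-144 and miR-185, 38 tested) 4 passed higher and 1 lower, with a median of 0.15, and in the glucose and insulin list (27 tested) 0 passed, with a median of -0.06. The most abundant sequences of the first list were dre-miR-122_R-1, the hallmark hepatocyte miRNA, with a log2 difference of 0.15 (SE 0.19, adjusted p = 0.694, edgeR), dre-miR-30e-5p_R+2 with -0.01 (SE 0.16, adjusted p = 0.976, edgeR) and ssa-miR-30b-5p_R-4 with 0.47 (SE 0.21, adjusted p = 0.172, edgeR). They also lead the lipid list, since the lists share members. Between noCHO and fasted fish 0 sequences of these lists passed.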

How the data were processed

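Small RNA of 12 livers was sequenced on an Illumina GAIIx from TruSeq RNA libraries, per the labels. The deposited tables hold read counts per library and class, an estimated count per miRNA sequence and library (85.1% of values exactly whole, the rest fractions of shared reads), and a normalized signal that equals the deposited estimated count divided by 1 library size parameter, with zeros written as 0.001; the signal was not used. The submitters' processing notes name Bowtie 1.1.1; what it was used for, the build and the database release were not given in the sources used here. Per-sample columns outside the groups numbered 0.

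Groups came from the sample titles. After rounding of the estimated counts, 1 quasi-likelihood fit over 12 libraries was made in edgeR 4.0.16 (R 4.3.3) with TMM scaling. Its filterByExpr step by group kept 340 sequences, 291 with known names and 49 predicted candidates, which held 99.9% of counts. The fit was also run on simulated counts with the same dispersion for all sequences, set below the common dispersion fitted to the data. These counts held no library-set or short-insert differences, so that run covers neither such features nor the full spread of the data. Tests were two-sided, with Benjamini-Hochberg adjustment over all sequences and a threshold of 0.05. Each SE is the log2 fold change over the square root of F. At the lowest depth 1 CPM is 0.198 counts. Ratios used the unrounded estimated counts and exact permutation tests in scipy 1.17.1. Since reads carried no molecular identifiers, intervals cover counting error only.

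The members, lists and comparisons were chosen with earlier results of these data known. Named sequences are the 4 rows, other rows of the family by name or seed, the 3 known sequences nearest in profile to dre-miR-148_R-1 and to fru-miR-152, and the 3 most abundant of the hepatocyte and of the lipid list. Alternatives were other scalings, filters and tests, terms for library set or short inserts, and each library left out.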

Additional observations from a re-analysis of the deposited data

Results flagged for a closer look

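Of 30 groups of 4 libraries examined for a value far from the others, 1 was flagged, where chance flags about 1 in 20. In noCHO sample 31, ola-miR-148_R+1 had 14.5 counts per 100 of dre-miR-148_R-1, against 6.38 to 7.55 in the other noCHO libraries. The same library had the lowest dre-miR-148_R-1 of its group and the highest ola-miR-148_R+1, ssa-miR-148a-5p and fru-miR-152. The cause was not tested.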

How the results depend on the processing

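No paired analysis was possible because the groups share no sample numbers. In noCHO against fasted fish, scaling to the sample total turned fru-miR-152 to log2 -0.059 and ssa-miR-148a-5p to -0.11, the library set as a term gave -0.010 and -0.33, and the set that holds all fasted libraries gave -0.012 and -0.34 (2 noCHO and 4 fasted libraries). That scaling moved the median of all sequences from log2 0.02 to -0.17 there, from 0.03 to -0.19 in highCHO against fasted, and by under 0.1 in highCHO against noCHO. Values that moved by more than the spread between replicates in highCHO against fasted fish were ssa-miR-148a-5p with scaling to the total (-0.10) or the set (-0.66) and fru-miR-152 with the short-insert term (-0.51). In highCHO against noCHO fish they were dre-miR-148_R-1 (0.35) and fru-miR-152 (-0.64), both with the short-insert term. ssa-miR-152-5p_L-1, added after its values were seen, turned to -0.98 and -0.20 with the set in these comparisons. Short inserts did not overlap between highCHO and the other groups, so values with that term were not observed directly. The cause of these shifts was not tested. No tested row of the family passed under any alternative run. No ratio passed either, but that says little about robustness. After adjustment a single ratio could not pass in any run, even with no overlap between groups. Within the set of all fasted libraries only 15 arrangements exist, too few for any ratio to pass.

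Calls in noCHO against fasted fish were 4 with no filter and 2 with DESeq2, none of them family rows. In highCHO against fasted fish 21 were called: 13 with scaling to the total, 54 with no filter, 35 with DESeq2, 13 with the set and 3 with short inserts. In highCHO against noCHO fish 8 were called: 3 with scaling to the total, 52 with no filter, 22 with DESeq2, 4 with only those groups in the fit, 18 with the set and 1 with short inserts. Leaving out each library gave 0 to 2, 7 to 25 and 2 to 18 calls in the 3 comparisons, in the same order. The 2 came without noCHO sample 20. In highCHO against fasted fish the count moved over 1.5-fold without highCHO sample 45 (13) and fasted samples 7 (13), 8 (7) and 10 (8), and in highCHO against noCHO fish without highCHO sample 38 (18), noCHO samples 21 (5) and 31 (2) and fasted samples 8 and 10 (4 each).

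Leaving out each library, fru-miR-152 ranged over log2 -0.96 to -0.61 in highCHO against fasted, -1.03 to -0.75 in highCHO against noCHO and 0.01 to 0.19 in noCHO against fasted fish. For dre-miR-148_R-1 the ranges were -0.15 to 0.43, -0.54 to 0.05 and 0.23 to 0.52, for ola-miR-148_R+1 -1.06 to -0.28, -1.71 to -0.92 and 0.44 to 0.96, and for ssa-miR-148a-5p 0.01 to 0.18, -0.10 to 0.30 and -0.21 to 0.19. ssa-miR-152-5p_L-1 ranged over -0.46 to 0.10 in noCHO against fasted fish. Leaving out 1 noCHO or fasted library, the ratios in noCHO against fasted fish ranged over log2 -0.48 to -0.17 for fru-miR-152 over miR-148 3p, 0.039 to 0.43 for ola-miR-148_R+1 over dre-miR-148_R-1 and -0.70 to -0.19 for ssa-miR-148a-5p over miR-148 3p, and the share of the 4 rows over 0.108 to 0.681 percentage points. The ratio of ola-miR-148_R+1 to dre-miR-148_R-1 has no further rows to add, so that alternative gave no value for it.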
